A study of Mus musculus with 5 samples.

Results

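Cytosolic ribosomal protein genes encode the proteins of the ribosomes that translate messenger RNA in the cytoplasm. They were chosen by symbol, as Rpl or Rps followed by a number and at most an a, l or x, together with Rplp0, Rplp1, Rplp2 and Rpsa, and without pseudogene symbols. The rule took 81 of the 23284 gene symbols in the count tables, 32 of the small subunit and 49 of the large subunit. The symbol alone decides membership, and the family was taken up with earlier results of these data known.

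Primary acinar cells, which make the digestive enzymes of the exocrine pancreas, came from C57BL/6 mice aged 8 weeks, and their poly(A) RNA was sequenced. The control group was 2 libraries of genotype p48-Cre, and the knockout group was 3 libraries of genotype Arid1afl/fl;p48-Cre. Both groups carried the Cre recombinase, expressed from p48 (Ptf1a), a gene of the pancreatic lineage, and the knockouts also carried floxed alleles of Arid1a, the gene of a subunit of the SWI/SNF chromatin remodelling complex. Cre under this promoter acts in the developing pancreas and not in acinar cells alone, and the labels do not say whether each library came from a separate animal, so a p-value sets a difference against library-to-library spread that could be technical.

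In a ribosome the small subunit binds messenger RNA and reads its codons, and the large subunit joins the amino acids and holds the tunnel through which the new chain leaves. Each protein is normally present once in each ribosome, apart from the stalk proteins of the large subunit, so cells make these proteins in matched amounts. Their messenger RNAs begin with a run of pyrimidines, the terminal oligopyrimidine motif, through which growth signals set their translation, and mammalian genomes hold many processed pseudogene copies of them. Acinar cells are known for very high protein synthesis, most of it spent on digestive enzymes.

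The annotated starts of the genes varied in the pyrimidines they hold. The windows below run from 40 bases before to 20 bases after the RefSeq start (build GRCm38.p6) of genes that recur in the results and have long or short runs, 5′ to 3′ on the gene's strand, with the longest pyrimidine run near the start in capitals.
Rps21, chr2:180257339-180257398, plus strand: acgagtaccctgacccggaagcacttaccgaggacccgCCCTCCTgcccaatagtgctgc
Rps9, chr7:3704001-3704060, plus strand: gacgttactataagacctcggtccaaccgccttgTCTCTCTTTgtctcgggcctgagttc
Rpl14, chr9:120571477-120571536, plus strand: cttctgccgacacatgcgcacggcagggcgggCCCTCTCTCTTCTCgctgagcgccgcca
Rpl15, chr14:18270967-18271026, minus strand: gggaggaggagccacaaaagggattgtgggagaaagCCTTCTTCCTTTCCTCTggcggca
Rps15, chr10:80292391-80292450, plus strand: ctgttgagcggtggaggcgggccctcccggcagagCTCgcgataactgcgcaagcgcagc
Rps3, chr7:99483690-99483749, minus strand: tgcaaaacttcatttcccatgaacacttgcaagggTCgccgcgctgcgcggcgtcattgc

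Of the 81 genes, 61 had a start in the RefSeq table. The longest run from 10 bases before the start to the end of the window was 2 to 20 bases, with a median of 7, and it was under 5 bases in 17 genes. For genes with several starts, the longest run over all of them was taken, and a motif at any of them counted. Rps21 has a further start, not shown, with a run of 4 bases. Within 250 bases before and 50 bases after a start, on either strand, the letters CTTTCC were present in 32 of the 61 genes (52.5%), against 29.3% of 27025 genes. The letters CCGGAAG, which ETS factors recognise, were present in 26 (42.6%), against 9.9% of all genes. The letters AAGATGG, a core of the YY1 motif, were present in 9 (14.8%), against 7.3%. Matches to different motifs may overlap, and a match describes the letters only.

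Coding sequences decide how far a read can be told from a pseudogene or paralog, and the first 50 coding bases, with the start codon in capitals, show the range. Those of Rpl8 and Rps21 were found in no other GENCODE gene, whereas those of Rpl26 and Rpl19 stood in 2 and 3 other genes.
Rpl8: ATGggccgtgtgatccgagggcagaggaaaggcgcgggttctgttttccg
Rps21: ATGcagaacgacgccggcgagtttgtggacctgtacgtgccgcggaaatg
Rpl26: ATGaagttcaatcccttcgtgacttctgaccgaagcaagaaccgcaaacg
Rpl19: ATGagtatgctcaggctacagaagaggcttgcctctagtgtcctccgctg

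The libraries differed in depth along with genotype. Control libraries held 291677 and 589798 counts and knockout libraries 3471701 to 4049215. Rn45s, the precursor of the large ribosomal RNAs, made up 72.6% and 82.2% of control counts and 6.78% to 10.9% of knockout counts. Without Rn45s and Lars2, whose counts move with it, 67514 and 72006 control counts were left against 3155357 to 3568906, and all values in counts scaled to parts per 1e6 (CPM) are on these totals. A single count was worth 14.8 and 13.9 CPM in the controls and at most 0.317 CPM in knockout libraries. Depth, the Rn45s share and genotype separated the libraries in the same way and cannot be told apart. Arid1a itself had 0 and 3 counts in control libraries versus 44, 121 and 42 in knockout libraries, a fitted log2 fold change of -0.07 (edgeR quasi-likelihood test, adjusted p = 0.985), and counts over the whole gene need not fall when only a floxed part is deleted. Acinar markers summed to 228071 and 267853 CPM in control libraries versus 249233 to 306217 CPM in knockout libraries, with Amy2a5 at 0 throughout.

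Ribosomal protein messenger RNA took a larger share of each knockout library than of either control library. The 81 genes together held 432 and 274 control counts, or 0.640% (exact binomial 95% interval 0.581% to 0.703%) and 0.381% (0.337% to 0.428%). They held 42305, 45218 and 36194 knockout counts, or 1.34%, 1.27% and 1.08%, and none of these intervals reached a control interval. The intervals of the 2 controls did not meet each other either. In CPM the sums were 6399 and 3805 in control libraries (5102 ± 1834, SD, n = 2) versus 13407, 12670.0 and 10820 in knockout libraries (12299 ± 1333, SD, n = 3). The ratio of the group means was 2.41, and the ratio of the pooled shares was 2.43 (exact 95% interval 2.25 to 2.62). All intervals cover counting error only, since reads without molecular identifiers are not independent molecules.

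The ratio was higher for the small subunit. The pooled intervals of the subunits did not meet, but they cover counting error only, and the intervals of the 2 controls did not meet each other either. The 32 genes of the small subunit held 0.234% (0.199% to 0.273%) and 0.0972% (0.0758% to 0.123%) of control counts against 0.660%, 0.609% and 0.511% of knockout counts. Their summed CPM were 1656 ± 967 (SD, n = 2) in control libraries versus 5932 ± 756 (SD, n = 3) in the knockouts, 3.58-fold apart, with a pooled ratio of 3.62 (3.18 to 4.15). The 49 genes of the large subunit held 0.406% and 0.283% against 0.681%, 0.658% and 0.571%. Their sums were 3446 ± 866 and 6367 ± 580 CPM, 1.85-fold apart, with a pooled ratio of 1.86 (1.70 to 2.04). For neither subunit did a knockout value overlap a control value, but control 1 stood well above control 2, and without control 1 the small subunit ratio was 6.10.

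**Figure D1:**
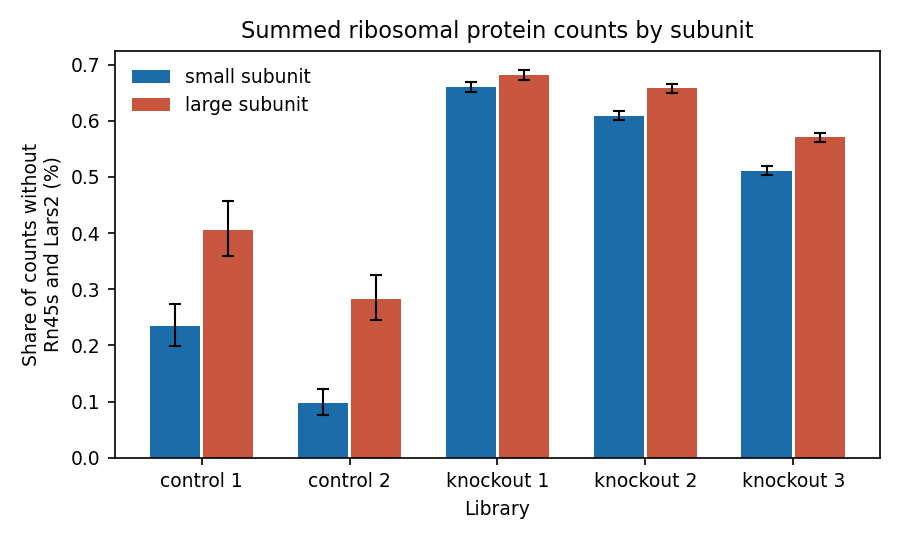
Share of each library's counts without Rn45s and Lars2 (%) held by the 32 small subunit and 49 large subunit genes, as bars for each of the 5 libraries, with exact 95% binomial intervals as error bars, which cover counting error only. The 3 knockout libraries lie above both controls for each subunit, from 0.511% against at most 0.234% for the small and from 0.571% against at most 0.406% for the large subunit.

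The sums were higher in the knockouts on each scale tried, and the size of the difference moved with the scale. On totals that also leave out the digestive enzymes, which took 67.3% and 70.8% of control and 68.6% to 88.3% of knockout counts, the ratio of the sums was 4.07. With TMM factors on the same rows it was 10.1. The 81 genes were 1.96% and 1.30% of counts outside the enzymes in control libraries versus 6.66%, 4.03% and 9.24% in the knockouts. In bulk RNA, fewer cells and less RNA per cell cannot be told apart.

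The balance of the subunits does not depend on any scale, because it compares counts within a library. Large subunit counts divided by small subunit counts were 1.73 (exact 95% interval 1.42 to 2.12) in control 1 and 2.91 (2.21 to 3.88) in control 2. The knockout libraries stood at 1.03 (1.01 to 1.05), 1.08 (1.06 to 1.10) and 1.12 (1.09 to 1.14). Both controls were thus above all 3 knockouts, and the controls differed more from each other than the knockouts did. The small subunit took 32.3% of the ribosomal protein counts in the controls together and 48.2% in the knockouts together. The ratio of the knockout to the control mean was 0.463.

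**Figure D2:**
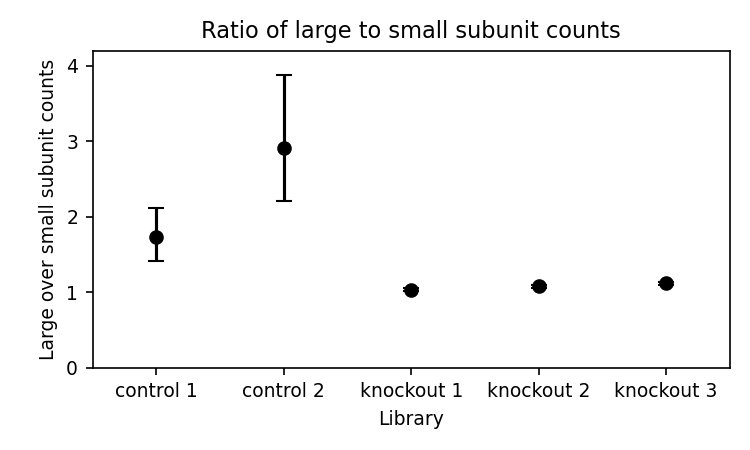
Large subunit counts over small subunit counts in each library, with exact 95% binomial intervals for counting error. The controls lie at 1.73 and 2.91 and the knockouts between 1.03 and 1.12.

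As point values, that order held in 3 smaller sets of genes chosen after the values were seen. No intervals were computed for these sets, so whether control 1 differs from the knockouts beyond counting error was not tested. Without Rplp1, which alone gave 82 of the 274 large subunit counts in control 1, the ratios were 1.22 and 2.49 in control libraries versus 0.891, 0.959 and 0.879 in knockout libraries. With the 14 genes whose coding sequence is mostly their own, as defined below, they were 0.850 and 1.65 against 0.798, 0.828 and 0.609. Control 1, on 85 large and 100 small subunit counts, thus lay close to knockout 2. Without the 10 genes of highest mean CPM they were 0.808 and 4.61 against 0.617, 0.595 and 0.667. Control 1 then rested on 63 large and 78 small subunit counts, and control 2 on 83 and 18.

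Gene by gene, 53 of the 81 genes had enough counts to be tested, 23 of the small and 30 of the large subunit. Of these, 10 passed the filter through the knockouts alone, with no control count, and 15 had 1 to 3 control counts. In the edgeR quasi-likelihood test, with Benjamini-Hochberg adjustment over 8291 genes, 1 ribosomal protein gene, Rps21, was higher in the knockouts at an adjusted p under 0.05 and 0 were lower. The background of such calls was 0.193% higher (16 genes) and 1.6% lower (133 genes). Of the 16 genes called higher, 9 had no control count, Rps21 among them. At an unadjusted p under 0.05, 6 members were higher, 5 of them of the small subunit, against 1.95% of all tested genes, and 1 was lower, against 11.0%. Among the 6, Rps21 and Rpl29 had no control count, so the filter fixed their side.

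The fitted changes leaned to the knockout side across the family. The fitted log2 fold change was above 0 for 46 of the 53 tested genes, 23 of 23 in the small and 23 of 30 in the large subunit, where 52.5% of all tested genes were above 0. All 3 knockouts lay above both controls for 36 of the 53, 18 in each subunit, against 35.6% of all tested genes, and below both for 0, against 11.2%. These shares include genes with no control count, 10 of the 53 and 33.5% of all tested genes, whose side the filter fixed. With a control count required, fitted values were above 0 for 36 of 43 members, 19 of 19 small and 17 of 24 large, against 28.6% of 5516 genes. All 3 knockouts were above both controls for 26 of these 43, 14 small and 12 large, against 5.15%. The median log2 fold change was 1.52 over the 53 genes, 2.05 for the small and 1.19 for the large subunit, and 0.22 over all genes. When either control was left out, the median over all genes was above that of the members. Fitted values of genes without a control count are no bound. With such genes set to 3 counts in the controls together, 21.5 CPM, the median log2 CPM ratio was 1.05 for the 53 genes, 1.48 and 0.54 for the small and large subunit, and -1.14 for all genes.

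The count of calls moved with scale and tool. DESeq2, with its own size factors, called 28 of the 48 members it gave an adjusted p, 14 in each subunit and 5 with no control count, where it called 11.6% of all genes higher. The edgeR test with TMM factors without Rn45s and Lars2 called 5 members, 3 small and 2 large, where 1.77% of genes were called higher, and limma-voom called 0. Without knockout 1 edgeR called 0 members, and over all genes it called 0 higher.

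Among genes with at least 10 control counts, most ribosomal protein genes had a pooled ratio above 1 and most other genes a ratio below 1. There were 18 such members, 7 of the small and 11 of the large subunit, and 1150 such genes in all. The interval of the pooled ratio lay above 1 for 13 of the 18 members, 6 small and 7 large, against 6.78% of the 1150 genes. It lay below 1 for 1 member, Rpl15, against 79.7% of the 1150 genes, and it held 1 for Rps2, Rplp1, Rpl22 and Rpl13. The median ratio was 2.05 for the 18 members, 2.86 for the small and 1.56 for the large subunit, and 0.162 for the 1150 genes. Requiring 10 counts in such shallow controls takes genes that were high there, and requiring any control count does so to a lesser extent, so both lower the ratios of the genes they keep. Taken instead by a knockout mean of at least 100 CPM, which raises them, the interval lay above 1 for 21 of 24 members against 60.6% of 297 genes, and below 1 for 0 members against 16.5%.

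**Figure D3:**
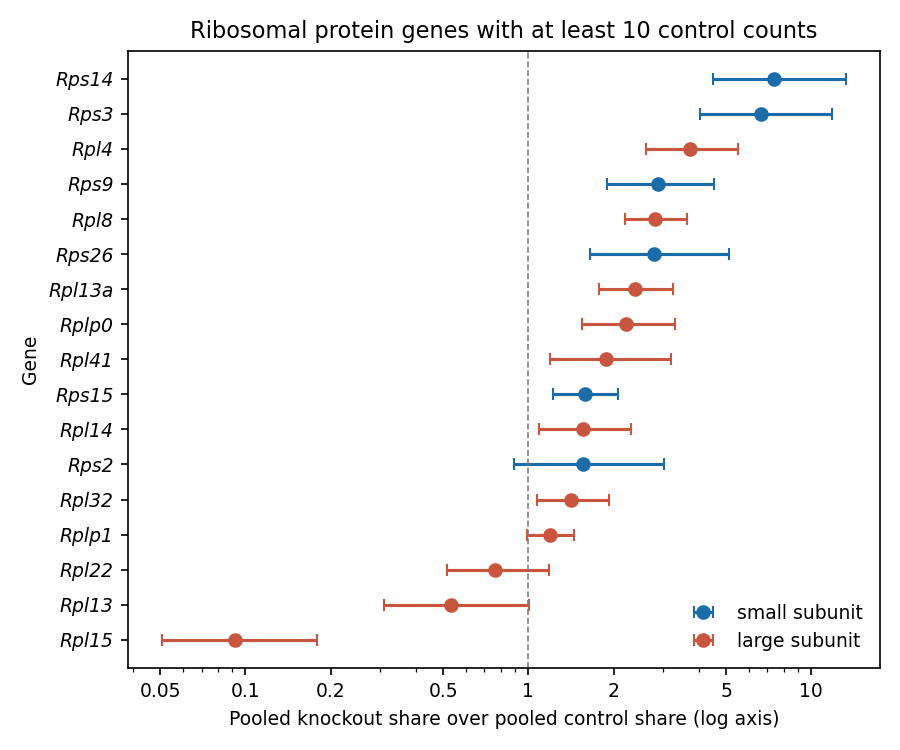
Pooled knockout share over pooled control share for 17 of the 18 ribosomal protein genes with at least 10 control counts, on a log axis, with exact 95% intervals for counting error only and the subunit as colour. The interval lies above 1 for 12 of the genes drawn, from Rps14 at 7.39 down, and below 1 for Rpl15 at 0.0917.

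Rps21 encodes a small protein of the small subunit that is needed for late steps in the maturation of 18S ribosomal RNA. It had 0 counts in both controls and 892, 872 and 847 counts in knockout libraries, which were 283, 244 and 253 CPM (260.1 ± 20.1, SD, n = 3). At the knockout share the controls together would have held 36.2 counts. Set against 3 counts in the controls together, the knockout mean of Rps21 was 12.1-fold higher. That value is no lower bound, and the exact interval of the pooled ratio began at 9.80. The edgeR adjusted p was 0.0194, and it was 0.0626 without control 2 and 0.866 without knockout 1.

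Rps14 and Rps3 gave the highest pooled ratios among members with at least 10 control counts. Rps14, a platform protein whose loss of a copy is known from the 5q- anaemia, had 44.4 and 167 CPM in control libraries versus 1059, 705 and 642 CPM in knockout libraries. Its pooled ratio was 7.39 (4.48 to 13.2), with a log2 fold change of 2.92 ± 1.08 (SE; edgeR adjusted p = 0.143). Rps3, which lines the messenger RNA entry channel, had 163 and 55.6 CPM against 921, 873 and 351 CPM, a pooled ratio of 6.65 (4.03 to 11.9; edgeR adjusted p = 0.190). Neither gene overlapped between groups, and neither passed the adjusted threshold, on 15 control counts each.

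Other abundant small subunit genes spread from a clear gap to overlap. Rps20 had 74.1 and 13.9 CPM in the controls against 314, 251 and 260.4 CPM in knockout libraries, on 6 control counts in all, with a pooled ratio of 6.36 (2.92 to 17.4; edgeR adjusted p = 0.337). Rps9, a protein at the entry channel that bears on decoding accuracy, had 252 and 83.3 CPM against 434, 597 and 373 CPM (pooled ratio 2.86, 1.90 to 4.52; edgeR adjusted p = 0.564). Rps26, which contacts messenger RNA upstream of the start codon, had 207 and 0 CPM against 284, 253 and 304 CPM (edgeR adjusted p = 0.582). In all 3 genes each knockout was above both controls, and control 2 was the lower control.

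Rps15 and Rps2 showed how far the control libraries could differ. Rps15, a head protein near the decoding centre, had 622 and 236 CPM in control libraries versus 627, 630.4 and 748 CPM in knockout libraries, so control 1 almost reached the lowest knockout. Its pooled ratio was 1.58 (1.22 to 2.08; edgeR adjusted p = 0.699). Rps2, on the entry side of the messenger RNA channel, had 163 and 13.9 CPM against 131, 139 and 131 CPM, with control 1 above all knockouts (edgeR adjusted p = 0.789). Without control 2 the log2 fold change of Rps2 turned from 0.61 to -0.28.

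Of the small subunit genes with few control counts, Rps4x, the X-linked copy of the Rps4 protein, had 44.4 and 13.9 CPM against 85.3, 118 and 24.2 CPM, and overlapped (edgeR adjusted p = 0.616). Rpsa, also known as a laminin receptor, had no control count and 11.1, 8.13 and 25.7 CPM in knockout libraries, below the floor of 21.5 CPM on average (edgeR adjusted p = 0.555). The paralogs Rps27 and Rps27l differed in counts. Rps27l, a target of p53, had 29.6 and 0 CPM in control libraries versus 125, 98.9 and 72.6 CPM in knockout libraries (edgeR adjusted p = 0.478), whereas Rps27 had no control count and 5, 12 and 2 knockout counts. Rps27a, which is made as a fusion with ubiquitin, had no control count and 4, 10 and 3 knockout counts, and neither it nor Rps27 was tested. Both had 0% own words, as defined below, against 51.7% for Rps27l, so their low counts are uncertain as levels.

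Among large subunit genes, Rpl8 and Rpl4 lie where the new chain is made and where it leaves. Rpl8, which sits by the peptidyl transferase centre, had 489 and 444 CPM in control libraries (467 ± 31.4, SD, n = 2) versus 1474, 1542 and 903 CPM in knockout libraries (1306 ± 351, SD, n = 3). Its pooled ratio was 2.81 (2.202 to 3.64), with a log2 fold change of 1.49 ± 0.89 (SE; edgeR adjusted p = 0.483). Rpl4, in the wall of the exit tunnel, had 355 and 83.3 CPM against 965, 1068 and 357 CPM (pooled ratio 3.72, 2.60 to 5.51; edgeR adjusted p = 0.422). For Rpl4, control 1 and knockout 3 were nearly level, while for Rpl8 the groups stood well apart.

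Rpl13a, which also has a role in silencing inflammatory messenger RNAs, had 415 and 249.98 CPM against 804, 656 and 903 CPM (pooled ratio 2.38, 1.78 to 3.25; edgeR adjusted p = 0.582). Rpl32 had 399.9 and 306 CPM against 552, 433 and 517 CPM (pooled ratio 1.42, 1.07 to 1.92; edgeR adjusted p = 0.779). Rpl41, a very short peptide that bridges the subunits, had 148 and 111 CPM against 218, 176 and 338 CPM (edgeR adjusted p = 0.647). These 3 genes did not overlap between groups, although none passed the adjusted threshold. Rpl14 did overlap, with 385 and 55.6 CPM against 345, 301 and 362 CPM (edgeR adjusted p = 0.744), and its log2 fold change turned from 0.61 to -0.20 without control 2.

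The stalk recruits the GTPase factors of translation and is built from Rplp0, which anchors it, and dimers of Rplp1 and Rplp2. Rplp0 had 252 and 181 CPM in control libraries versus 486, 579 and 359 CPM in knockout libraries, a pooled ratio of 2.22 (1.55 to 3.29; edgeR adjusted p = 0.589). Rplp2 had 59.2 and 27.8 CPM against 126, 151 and 95.7 CPM, on 6 control counts (edgeR adjusted p = 0.587). Rplp1 had 1215 and 417 CPM against 934, 735 and 1218 CPM, a pooled ratio of 1.19 (0.990 to 1.45; edgeR adjusted p = 0.890). Rplp1 thus overlapped between groups where Rplp0 and Rplp2 did not, and the fitted log2 fold change of Rplp1 turned from 0.24 to -0.34 without control 2. A difference between these genes in response was not tested.

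Rpl15, Rpl22 and Rpl13 were the large subunit genes with at least 10 control counts and a fitted value below 0. Rpl15 and Rpl13 had 0% own words, as defined below, and shared words with 23 and 15 other genes, while Rpl22 had 69.0% own words. Rpl15, needed for large subunit assembly, had 0 and 13 counts in control libraries versus 14, 33 and 39 in knockout libraries, or 0 and 181 CPM against 4.44, 9.25 and 11.7 CPM. Its pooled ratio of 0.0917 (0.0509 to 0.179; log2 fold change -3.42 ± 1.45, SE; edgeR adjusted p = 0.242) rested on control 2 alone. Without control 1 it was lower at an edgeR adjusted p of 0.0255, and without control 2 its fitted log2 fold change was 7.43.

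Rpl22, which binds other RNAs and is dispensable for ribosome function, had 1 and 24 control counts, 14.8 and 333 CPM against 156, 176 and 77.4 CPM in knockout libraries (pooled ratio 0.764, 0.516 to 1.19; edgeR adjusted p = 0.870). Rpl13 had 133 and 55.6 CPM against 39.6, 23.0 and 87.6 CPM (pooled ratio 0.533, 0.309 to 1.01; edgeR adjusted p = 0.688). Both genes overlapped between groups, and the fitted value of each was above 0 with TMM or RLE factors, on totals without the enzymes and in DESeq2. Rpl29 had no control count and 53.6, 54.6 and 53.5 CPM in knockout libraries (edgeR adjusted p = 0.314). Set against 3 counts in the controls together, its knockout mean was 2.51-fold higher, and the exact interval of the pooled ratio began at 2.03. Its own words, as defined below, were 9.74%, and 84 other genes shared words with it.

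Paralogs whose use is largely confined to muscle or testis were at or near 0. Rpl3l, the muscle form of Rpl3, had 1, 1 and 0 knockout counts, and Rpl10l and Rpl39l, known from the testis, had no count in any library. Their widely expressed partners had more reads. Rpl3 had 14.8 and 27.8 CPM in the controls against 33.3, 45.1 and 16.1 CPM (edgeR adjusted p = 0.866), and Rpl39 had 0 and 13.9 CPM against 63.7, 43.7 and 64.9 CPM (edgeR adjusted p = 0.531). Rpl10 had no control count and 9, 38 and 5 knockout counts and was not tested.

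The 28 members that were not tested made up a small part of the reads. They held at most 52 knockout counts each and 399 together, 0.323% of the family's knockout counts, and 1 of them, Rpl21, had a control count. Over the whole family, 37 genes had no control count, 27 had a count in both controls, and 3 had none in any library, Rpl26 beside Rpl10l and Rpl39l. A further 10 genes had counts in control 1 alone and 7 in control 2 alone of the controls. The number of members with a count was 37 and 34 in control libraries versus 77, 78 and 70 in knockout libraries.

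The order of the genes within the family was nearly the same in the knockout libraries and looser in the controls. Spearman's rho of the counts over the 81 genes was 0.944 to 0.982 between knockouts and 0.680 between the controls. It was 0.817 to 0.833 between control 1 and the knockouts and 0.689 to 0.704 between control 2 and the knockouts. The points share gene length and sequence copies, so these values describe the libraries and are given with no p. The 10 genes of highest mean CPM, Rplp1, Rpl8, Rpl13a, Rps15, Rpl4, Rps14, Rpl32, Rps3 and Rplp0 among them, held 67.4% of the family's knockout counts and 65.7% of its control counts. Without these genes the ratio of the summed CPM was 2.29.

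Counts per gene went with how much coding sequence a gene shares with other genes. Each coding sequence was cut into words of 50 bases, and a word was called the gene's own when no transcript of another GENCODE gene held it on either strand. The 29 members without an own word had a median of 18 counts over the 3 knockout libraries, and 19 of them had at most 30. The 38 members with some own words but under 50% had a median of 558.5 counts, and the 14 with at least 50% had a median of 3680 counts. Per kilobase of coding sequence the medians were 4.26, 104 and 719 CPM, and Spearman's rho over the 81 genes was 0.574, given with no p.

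Exceptions stood at both ends. Rpl41 and Rpl13a, with 0% and 2.5% own words, were at 3254 and 1294 CPM per kilobase, and Rpl3l, Rpl10l and Rpl39l were near 0 with mostly own sequence. The divisor is coding length alone, which is 75 bases for Rpl41, so its value per kilobase is high on a knockout mean of 244 CPM. Among the genes of own sequence, Rpl8 (91.3% own words) stood at 1694 CPM per kilobase, Rps21 (54.5%) at 1044 and Rps3 (91.9%) at 981. How reads with several matching genes were counted is not given in the sources used here, so a low count of a gene such as Rpl19 is uncertain as a level.

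**Figure D4:**
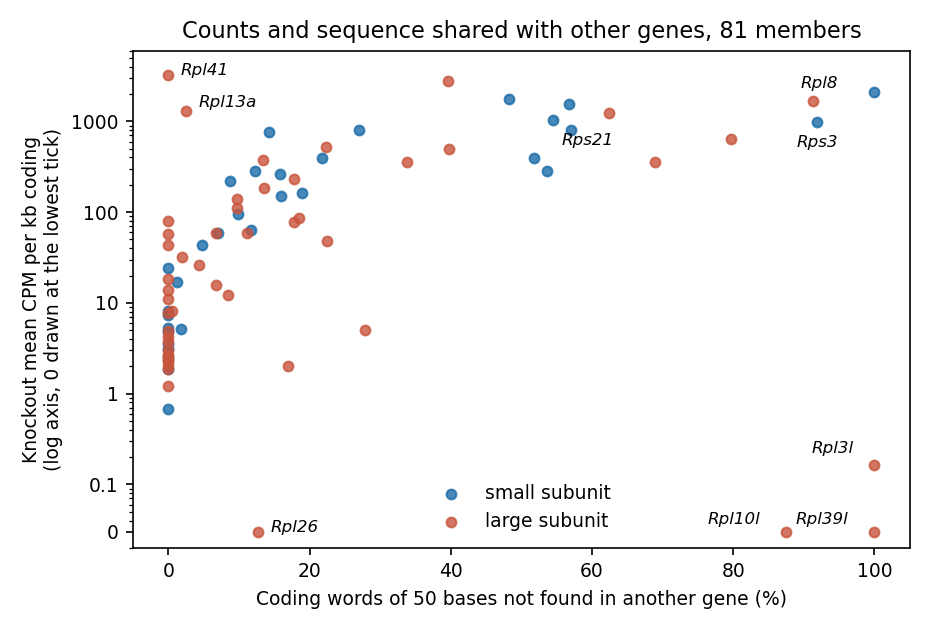
Mean knockout CPM per kilobase of coding sequence (log axis, 0 drawn at the lowest tick) against the percentage of 50-base coding words found in no other gene, 1 point for each of the 81 members, with the subunit as colour. Genes without an own word have a median of 4.26 CPM per kilobase and those with at least 50% own words 719, with Rpl41, Rpl13a and the paralogs Rpl3l, Rpl10l and Rpl39l apart.

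The summed CPM were higher in the knockouts both for members with at least 50% own words and for members under 50%. The 14 members with at least 50% own words summed to 2308 ± 612 CPM in control libraries (SD, n = 2) versus 6366 ± 1273 CPM in knockout libraries (SD, n = 3), a ratio of 2.76, and 3.31 and 2.26 for their small and large subunit genes. The 67 members under 50% summed to 2794 ± 1222 and 5933 ± 377 CPM, a ratio of 2.12, and 4.11 and 1.62 for the small and large subunit. Of these, the 29 members without an own word held 7.93% of the family's control counts and 3.19% of its knockout counts. These are shares of pooled counts, and the controls differed. Rpl15, Rpl38 and Rpl21 had 0 counts each in control 1 and 13, 6 and 4 in control 2. Rpl13 and Rpl41 went the other way, with 9 and 10 counts in control 1 and 4 and 8 in control 2. The groups are thus not shown to differ in this part library by library, and the ratio of 2.12 does not describe these 29 members.

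Fau, which encodes a further ribosomal protein as a fusion with a ubiquitin-like protein, lies outside the symbol rule. It had no control count, and the knockouts stood at 3.18 ± 1.46 CPM (SD, n = 3), under the floor of 21.5 CPM of the controls (edgeR adjusted p = 0.676).

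Genes of the wider translation system followed the ribosomal proteins in part. Of 22 translation factors and other genes with terminal oligopyrimidine motifs, 21 were tested and 0 were called in either direction by edgeR. Their median log2 fold change was 1.41, and 4 of the 22 had no control count. Their sums were 2888 and 2430 CPM in control libraries versus 4498, 6019 and 2383 CPM in knockout libraries, so that knockout 3 lay below both controls. Gnb2l1 (Rack1), a scaffold on the small subunit, had 370.3 and 111 CPM against 1162, 1140 and 507 CPM (edgeR adjusted p = 0.365). Eef2, the factor that moves the ribosome along messenger RNA, overlapped, with 1170 and 972 CPM against 904 (knockout 1), 1297 and 406 CPM (edgeR adjusted p = 0.855).

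Factors that build ribosomes did not stand apart between the groups. Of 34 biogenesis genes 31 were tested and 0 were called, with a median log2 fold change of 0.23 and sums of 815 and 1069 CPM against 930, 1405 and 389 CPM. Ncl, the nucleolar protein nucleolin, had 59.2 and 83.3 CPM against 228, 384 and 107 CPM (edgeR adjusted p = 0.552), and Eif6, which keeps unfinished subunits apart, overlapped (edgeR adjusted p = 0.830). Of 15 genes of the integrated stress response and translation control 14 were tested and 0 were called. Their sums of 474 and 667 CPM against 692, 1219 and 409 CPM overlapped, as did Atf4, the main transcription factor of that response (edgeR adjusted p = 0.582). Ppp1r15a, whose protein helps to end that response, did not overlap, with 14.8 and 0 CPM against 129.6, 319 and 20.3 CPM (pooled ratio 22.4, 4.01 to 884, on 1 control count; edgeR adjusted p = 0.181).

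Mitochondrial ribosomal proteins, which serve a separate ribosome, overlapped between the groups as a sum. The 76 genes summed to 1318 and 667 CPM in control libraries versus 1220, 1483 and 1003 CPM in knockout libraries, with 71 tested and 0 called. Their median log2 fold change was 6.51, but 45 of the 76 had no control count, and fitted values of such genes are no bound. Mrpl52 had 44.4 and 0 CPM against 64.0, 59.96 and 85.2 CPM (edgeR adjusted p = 0.597), and Mrpl30 had no control count and 68.5, 57.2 and 77.7 CPM (edgeR adjusted p = 0.251).

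Markers of other cell types varied between libraries without 1 being called by edgeR. Duct markers summed to 681 and 500.0 CPM in control libraries versus 264, 974 and 154 CPM in knockout libraries, islet markers to 104 and 680.5 against 172, 905 and 213 CPM, and macrophage and leukocyte markers to 163 and 13.9 against 118, 413 and 83.1 CPM. Knockout 3 had the lowest ribosomal protein sum of the knockouts and the lowest duct and macrophage sums of the 3, and knockout 2 had the highest sum of all 3 lists. Fibroblast, endothelial, lymphocyte and fat markers each summed to at most 167 CPM in any library. The 5 red cell markers were at 0 in every library. The part of other cells in the ribosomal protein values was not tested.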

How the data were processed

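The deposited files held whole-number counts per gene symbol, 1 file per library with 23284 symbols and no normalization. Per the submitters' processing notes, the build was mm9 and the tools were Cuffdiff 2.2.1.5 and Cuffnorm 2.2.1.2, beside HTSeq 0.9.1 and TopHat2 2.1.1, with no roles given. Per the labels' protocols, libraries were made with the TruSeq RNA kit v2, which does not mark strand. The annotation, the strand setting and the counting of reads with several matches were not given in the sources used here.

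Rn45s and Lars2 were left out and counts scaled to the remaining total, which sets the precision of each library. edgeR 4.0.16 in R 4.3.3 (filterByExpr, glmQLFit robust, group as the only term, two-sided, no TMM factor, Benjamini-Hochberg over all genes tested) was tested on simulated data. It called 1 of 50 genes with a planted log2 fold change of 3 and 29 of 50 at 6. At -3 and -6 it called 2 and 47 of 50, and with no planted change 0 of 7660. A gene that is not called can thus still differ. Alternatives were 5 other scalings, 2 filters, DESeq2 1.42.0, limma-voom (limma 3.58.1), a replicate block, thinning, and each library left out.

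The members and gene lists were chosen with earlier results of these data known. Named genes were the 8 of highest mean CPM in each subunit, called genes, the 3 highest and 3 lowest fold changes with at least 10 control counts, stalk, fusion and paralog genes, and the 2 members of each other list with the most counts. Not every gene the rule takes is reported here. Rps20, Rpl21, Rpl26, Rpl19 and Rpl29, the own-word measure, the motifs, the smaller gene sets and the shares that require a control count or 100 CPM were chosen after the values were seen. Coding sequences came from GENCODE vM21, matched by symbol for 81 of 81 genes, with no coordinates of the files' build.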

Additional observations from a re-analysis of the deposited data

How the results depend on the processing

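With 2 shallow control libraries, counts of calls and the size of the ribosomal protein ratios moved with the settings, and the cause was not tested. Where 1 control was left out, the other was assumed to vary like the knockouts. Main values were 16 genes higher, 133 lower, 1 member higher, 0 members lower and a member median log2 fold change of 1.52.
In the same order, TMM factors on all rows gave 5, 27, 0, 0 and 3.44, and TMM factors without Rn45s and Lars2 gave 147, 71, 5 (3 small, 2 large), 0 and 3.49. DESeq2 gave 635, 543, 28 (14 small, 14 large), 0 and 2.35. limma-voom gave 0 higher, 43 lower and 0 members. RLE factors gave 81 genes lower and a member median of 3.07, upper quartile factors 354 lower, no low-count filter 898 lower and a median of 2.65, a filter of 1 CPM 388 lower, and thinned knockouts 20 lower.
Replicate numbers were shared between groups, but same-numbered libraries did not deviate together (correlations -0.01 and 0.036 over 8291 genes), so they share only a number. With that number as a replicate block, 4 genes were higher and 5 lower, and 0 members were called.
Leaving out each library in turn gave 0 to 19 genes higher (0 without knockout 1), 4 to 378 lower (4 without knockout 1, 48 without knockout 2, 63 without knockout 3, 378 without control 1 and 254 without control 2), 0 to 2 members higher, 0 to 2 small subunit genes higher, 0 to 1 member lower, which was of the large subunit, and a member median of 1.35 to 3.23. The median over all genes, 0.22, ran from -0.61 to 6.06, with 5.57 without control 2 and 6.06 without control 1. In both of these fits it was above the member median.
The ratio of summed CPM, 2.41, was 4.07 without the enzymes, 9.68 and 10.1 with TMM factors with and without Rn45s and Lars2, and 7.58 with RLE factors. The small subunit ratio, 3.58, was 14.2, 14.9 and 11.3 with those factors. The large subunit ratio, 1.85, was 3.12 without the enzymes and 7.48, 7.77 and 5.82 with those factors. With 1 library left out they ran from 1.92 to 3.23, from 2.54 to 6.10 and from 1.57 to 2.25. The large over small ratio, 0.463, ran from 0.370 to 0.621, and was 0.231 without the 10 genes of highest mean CPM, an alternative chosen after the data were seen.
Signs of fitted log2 fold changes turned for 7 named genes. Rpl13 was at 1.51 and 1.56 with TMM factors with and without both rows, 1.19 with RLE, 0.17 without the enzymes and 1.21 in DESeq2. Rpl22 was at 1.49, 1.52, 1.01, 0.17 and 1.03 in the same order, 0.57 in limma-voom, 0.79 with the replicate block and from -1.29 without control 1 to 3.20 without control 2. Fau was at -1.23 in limma-voom. Without control 2, Rpl14 was at -0.20, Rpl15 at 7.43, Rplp1 at -0.34 and Rps2 at -0.28, and without control 1 at 2.60, -4.41, 1.21 and 3.26.
The adjusted p of Rps21 was 0.0507 in edgeR with TMM factors on all rows, 0.275 in limma-voom and 0.777 in edgeR with the replicate block. In edgeR, Rps14 passed at 0.0486 with TMM factors without both rows, and Rps26 at 0.0412 without control 1.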
